A study of Mus musculus with 7 samples.

Results

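The 30 genes described here act in the G2 phase of the cell cycle and in mitosis, and they encode cyclins, mitotic kinases, spindle checkpoint proteins, motor proteins and chromosome components. They were taken by symbol from a table of 22680 genes, and 30 of the 30 were found and passed the minimum for testing, a mean of 1 FPKM over the LSK libraries, as did 10608 genes in all. The RNA came from sorted blood progenitors of the fetal liver in C57BL/6 mice, taken 13.5 days post coitum. There were 3 libraries of Uhrf1-/- LSK cells, 1 library of wild-type LK cells and 3 libraries of wild-type LSK cells. LSK is the lineage-negative fraction positive for both Sca-1 and c-Kit, which includes the hematopoietic stem cells, and LK is the c-Kit-positive fraction negative for Sca-1, whose cells are further along in differentiation. Uhrf1 encodes a protein that recognises hemimethylated DNA and recruits the maintenance methyltransferase Dnmt1 to newly copied DNA. The labels give the mutant only as Uhrf1-/-, and the sources used here do not say how or in which cells the gene was deleted, or whether fetuses were pooled.

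Cyclin A and the B cyclins activate the kinase Cdk1, which drives a cell into mitosis, where Polo and Aurora kinases, kinesins and kinetochore proteins build the spindle and attach the chromosomes. The spindle checkpoint then holds the anaphase-promoting complex, a ubiquitin ligase, inactive until every chromosome is attached, after which Cdc20 and the ligase destroy the B cyclins. Most of these genes are transcribed late in the cycle: the DREAM complex represses them in resting cells, and B-Myb, FoxM1 and NF-Y activate them in G2, through CHR elements bound by the MuvB core and CCAAT boxes bound by NF-Y. Stem cells of the fetal liver divide actively, unlike most of those in adult bone marrow. In sorted bulk RNA, fewer cells in G2 and mitosis and less RNA of these genes per cell cannot be told apart.

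Promoter sequence was available for 25 of the 30 genes, with 26 promoters, in a RefSeq table of the GRCm38.p6 build. Aurkb, Ccna2, Cdc25c, Kif20a and Tpx2 had no entry. In the window from 250 bases before to 50 bases after the start, a CHR element (the letters TTTGAA, or the variant TTTAAA, on either strand) was present in 23 of the 26 promoters (88.5%), against 27.6% of all 32851 promoters of the table. TTTGAA alone was in 76.9% of them, against 17.9% of all promoters, and TTTAAA in 34.6%, against 13.2%. CCAAT, on either strand, was in 22 of the 26 (84.6%), against 37.4% of all promoters. Both motifs stood together in 76.9% of the members' promoters and in 10.7% of all. Bub1, Nek2 and Nusap1 had no CHR match in this window, and Birc5, Kif2c, Ndc80 and Nusap1 had no CCAAT match. Within 100 bases before to 50 bases after the start, the shares with both were 69.2% and 3.03%. Matches were counted whether or not they overlapped another motif, and a match is a description of the letters, not a binding site.

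The sequences below are on the gene's strand, with the CHR and CCAAT letters of either strand in capitals. TTCAAA is the reverse complement of the first CHR form, and ATTGG the reverse complement of CCAAT. The promoters of 8 genes picked from the expression results run from 150 bases before to 30 bases after the start, 5′ to 3′. They lie at chr13:100786457-100786636 (minus strand, Ccnb1), chr10:69352883-69353062 (minus, Cdk1), chr9:61946770-61946949 (minus, Kif23), chr11:40733408-40733587 (minus, Hmmr), chr3:135212413-135212592 (plus, Cenpe), chr1:189688057-189688236 (minus, Cenpf), chr7:135716350-135716529 (minus, Mki67) and chr11:99024160-99024339 (minus, Top2a).
Ccnb1: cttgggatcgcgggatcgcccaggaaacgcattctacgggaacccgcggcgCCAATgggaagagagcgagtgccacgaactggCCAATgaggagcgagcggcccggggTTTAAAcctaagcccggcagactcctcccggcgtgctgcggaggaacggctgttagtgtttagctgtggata
Cdk1: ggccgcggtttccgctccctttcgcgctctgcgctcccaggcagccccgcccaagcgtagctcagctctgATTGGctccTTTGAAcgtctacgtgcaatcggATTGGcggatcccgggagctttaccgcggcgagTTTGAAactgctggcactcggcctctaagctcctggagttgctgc
Kif23: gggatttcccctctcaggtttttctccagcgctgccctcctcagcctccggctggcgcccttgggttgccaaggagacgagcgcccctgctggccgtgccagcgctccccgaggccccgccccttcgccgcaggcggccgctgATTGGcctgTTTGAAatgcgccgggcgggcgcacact
Hmmr: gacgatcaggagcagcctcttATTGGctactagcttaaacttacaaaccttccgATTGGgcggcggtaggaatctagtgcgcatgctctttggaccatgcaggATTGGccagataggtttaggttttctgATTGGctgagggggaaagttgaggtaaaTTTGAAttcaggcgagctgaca
Cenpe: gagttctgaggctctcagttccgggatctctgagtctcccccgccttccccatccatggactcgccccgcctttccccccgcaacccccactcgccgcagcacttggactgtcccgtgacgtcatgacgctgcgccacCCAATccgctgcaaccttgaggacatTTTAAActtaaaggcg
Cenpf: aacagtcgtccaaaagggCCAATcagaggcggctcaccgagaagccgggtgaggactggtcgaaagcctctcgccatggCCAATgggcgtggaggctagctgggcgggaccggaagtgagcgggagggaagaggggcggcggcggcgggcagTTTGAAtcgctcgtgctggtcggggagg
Mki67: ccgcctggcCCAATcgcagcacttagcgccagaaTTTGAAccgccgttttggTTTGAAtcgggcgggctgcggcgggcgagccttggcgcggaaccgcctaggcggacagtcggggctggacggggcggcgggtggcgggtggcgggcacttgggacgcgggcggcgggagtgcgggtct
Top2a: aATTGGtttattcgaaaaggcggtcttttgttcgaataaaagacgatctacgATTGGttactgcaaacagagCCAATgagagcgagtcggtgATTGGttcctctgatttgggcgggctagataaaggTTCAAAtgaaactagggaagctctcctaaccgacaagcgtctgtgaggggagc
All 8 stretches carried at least 1 CHR match and at least 1 CCAAT match, but the 8 were picked and do not stand for all members. Nusap1, which is not among them, had neither motif in the longer window. Cdk1 and Mki67 carried 2 CHR matches each and the other 6 carried 1. Hmmr and Top2a carried 4 CCAAT matches each, the most among the 8.

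Uhrf1 itself had 10.2, 8.78 and 18.6 FPKM (fragments per kilobase, scaled to the library total, a level per length) in Uhrf1-/- LSK replicates 1, 2 and 3, against 63.0, 66.8 and 112.8 FPKM in the wild-type LSK replicates. It fell by 2.62 on the log2(FPKM + 1) scale (limma, adjusted p = 0.0183). The deposited scaled counts summed to between 15556959 and 21017402 per library. Wild-type LSK replicate 2 stood apart from the others: ribosomal protein genes held 4.75% of its scaled counts, against 10.6% to 15.7% in the other 6 libraries, and its FPKM values summed to 570509, against 851271 to 1128572. Both libraries of replicate 3 also stood apart, with summed FPKM of 18 immediate-early genes of 208 in Uhrf1-/- and 141 in wild-type cells. That sum was 1814 to 2055 in Uhrf1-/- replicates 1 and 2 and 2148 to 2530 in wild-type replicates 1 and 2. Ly6a, which encodes Sca-1, had 0.32 FPKM in LK cells and 26.4 to 96.4 FPKM in the LSK libraries, and the T cell gene Cd3e was listed at 0 in all 7.

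**Figure D1:**
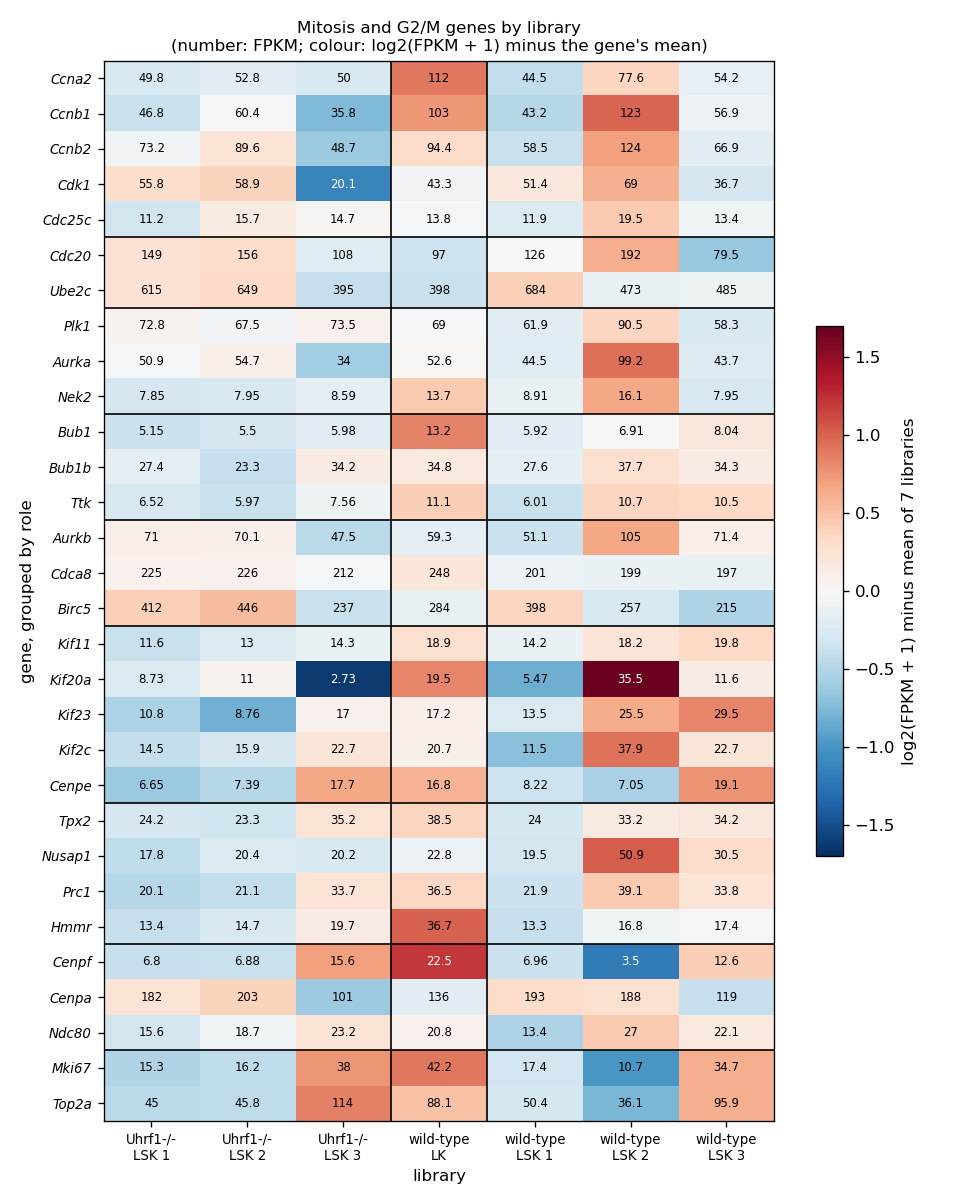
FPKM of the 30 genes (rows, grouped by role) in each library (columns: 3 Uhrf1-/- LSK, 1 wild-type LK, 3 wild-type LSK), with colour for the log2(FPKM + 1) value minus the gene's mean over the 7 libraries. Wild-type LSK replicate 2 held the highest of the 6 LSK values for 17 genes and the lowest for Mki67, Top2a and Cenpf.

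Whether the loss of Uhrf1 changed these genes was asked by comparing Uhrf1-/- with wild-type LSK cells, 3 libraries each. None of the 30 genes passed the limma test at an adjusted p of 0.05 over all 10608 genes tested, where 0.170% of all genes did (0.113% higher and 0.0566% lower). With the replicate number as a block, 0 of the 30 passed too, against 2.06% of all genes (1.23% higher and 0.830% lower). At an unadjusted limma p under 0.05, 1 of the 30 passed without the block and 2 with it, against 5.57% and 12.0% of all genes. The median difference of the 30 was -0.18 on the log2 scale, against -0.03 over all genes, and 22 of the 30 (73.3%) lay below 0, against 53.9% of all genes. Without wild-type replicate 2 the median was -0.06 and 17 of the 30 (56.7%) lay below 0, against 54.2% of all genes. The 95% interval lay within 1 log2 unit of 0 for 17 of the 30 (56.7%), against 59.6% of all genes, so for the other 13 a 2-fold difference in at least 1 direction was within the interval. Over all genes the genotype difference also moved with transcript length. Its median was 0.36 for transcripts up to 1000 bases, -0.14 over 3000 and up to 4000 bases and -0.02 over 7500 bases. After a length adjustment, described with the replicates, the median of the 30 was -0.13, against 0.0065 over all genes. Then 21 of the 30 (70.0%) lay below 0, against 49.1% of all genes. The part of length was not tested further.

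By replicate number the difference was uneven. In pair 2 the median of the 30 was -0.46, and 22 of them were lower in the Uhrf1-/- library. In pair 1 the median was 0.01 and in pair 3 it was -0.05, with 14 and 17 genes lower in the Uhrf1-/- library. Over all genes the medians were -0.01, -0.05 and -0.05 for pairs 1, 2 and 3. In all 3 pairs, 6 of the 30 (20.0%) were lower in the Uhrf1-/- library, against 18.3% of all genes: Bub1, Bub1b, Kif11, Kif23, Nusap1 and Prc1. Some of these differences were close to 0: Bub1b had -0.0094 in pair 1 and -0.0041 in pair 3, and Prc1 had -0.0038 in pair 3. Cdca8 and Birc5 were higher in all 3 pairs (6.67%, against 13.9% of all genes).

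Among the cyclins and their kinase, all 5 point differences lay below 0, but without wild-type replicate 2 only 2 of the 5 did (Ccnb1 and Cdk1). Ccnb1, which encodes cyclin B1, had 46.8, 60.4 and 35.8 FPKM in Uhrf1-/- LSK replicates 1, 2 and 3, against 43.2, 122.7 and 56.9 FPKM in the wild-type LSK replicates. The ranges overlapped, and the mean of 47.6 ± 12.3 FPKM in Uhrf1-/- cells compared with 74.3 ± 42.5 FPKM in wild-type cells (SD, n = 3 each), most of whose spread came from replicate 2. The log2 difference was -0.52 (95% interval -1.37 to 0.33, limma adjusted p = 0.942). Ccnb2, the other B cyclin, gave -0.20 (-0.98 to 0.58) and Ccna2, cyclin A2 of S phase and G2, gave -0.17 (-0.78 to 0.45). Cdk1, the kinase of both, had 55.8, 58.9 and 20.1 FPKM in Uhrf1-/- cells, against 51.4, 69.0 and 36.7 FPKM in wild-type cells. Replicate 3 was the lowest library of each genotype, and the difference of -0.31 (-1.24 to 0.61) was smaller than the spread within either group. Cdc25c, the phosphatase that removes inhibitory phosphates from Cdk1, gave -0.09 (-0.70 to 0.53).

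The activators of the anaphase-promoting complex were among the most abundant of the 30 per length, and neither passed the test. Cdc20, the adaptor that brings substrates to the ligase, had 148.6, 155.6 and 108.2 FPKM in Uhrf1-/- cells, against 125.6, 191.9 and 79.5 FPKM in wild-type cells, a log2 difference of 0.13 (-0.67 to 0.92). Ube2c, its ubiquitin-conjugating enzyme, averaged 553.2 ± 137.7 FPKM in Uhrf1-/- cells and 547.4 ± 118.4 FPKM in wild-type cells (SD, n = 3 each), a difference of 0.0028 (-0.85 to 0.85). The Uhrf1-/- values of Cdc20 lay inside the wild-type range, and the ranges of Ube2c overlapped.

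None of the 3 mitotic kinases outside the checkpoint passed the test. Aurka, the Aurora kinase of the centrosomes, had 50.9, 54.7 and 34.0 FPKM in Uhrf1-/- cells, against 44.5, 99.2 and 43.7 FPKM in wild-type cells. Nek2, a kinase of centrosome separation, had 7.85, 7.95 and 8.59 FPKM in Uhrf1-/- cells, against 8.91, 16.1 and 7.95 FPKM in wild-type cells. In both, wild-type replicate 2 was the highest library, and the ranges overlapped. Their log2 differences were -0.34 (-1.13 to 0.45) for Aurka and -0.33 (-0.99 to 0.33) for Nek2. Plk1, the Polo kinase of mitotic entry and spindle assembly, averaged 71.3 ± 3.2 FPKM in Uhrf1-/- cells and 70.3 ± 17.7 FPKM in wild-type cells (SD, n = 3 each), a difference of 0.047 (-0.56 to 0.65).

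All 3 spindle checkpoint kinases had point differences below 0, also without wild-type replicate 2, and none passed the test. Bub1, which marks kinetochores for shugoshin and the checkpoint, had 5.15, 5.50 and 5.98 FPKM in Uhrf1-/- cells, against 5.92, 6.91 and 8.04 FPKM in wild-type cells. The ranges met only at Uhrf1-/- replicate 3 and wild-type replicate 1, and the difference was -0.28 (-0.83 to 0.28, limma adjusted p = 0.942). Ttk, the kinase (Mps1) that starts checkpoint signalling, gave -0.36 (-0.99 to 0.28), and Bub1b (BubR1), part of the complex that inhibits Cdc20, gave -0.23 (-0.81 to 0.35).

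The chromosomal passenger complex, which corrects wrong attachments and guides cytokinesis, had values on both sides of 0, and none of its 3 genes passed. Cdca8 (borealin) was the only one of the 30 genes whose ranges did not overlap, with 225.2, 226.3 and 212.2 FPKM in Uhrf1-/- cells, against 200.9, 198.8 and 197.4 FPKM in wild-type cells. Ranges without overlap were found in 10.8% of all genes, 4.61% with Uhrf1-/- higher and 6.16% with it lower. The log2 difference of Cdca8 was 0.15 (-0.49 to 0.79, limma adjusted p = 0.958). Birc5 (survivin) had 411.9, 446.5 and 237.4 FPKM in Uhrf1-/- cells, against 397.6, 256.5 and 214.9 FPKM in wild-type cells, so the low library of each genotype was replicate 3. The difference of Birc5 was 0.33 (-0.53 to 1.19). Aurkb, the kinase of the complex, gave -0.23 (-0.94 to 0.49).

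All 5 mitotic kinesins had point differences below 0, and they included the largest of the 30. Without wild-type replicate 2, 4 of the 5 lay below 0, all but Kif2c. Kif23 (MKlp1), the motor of the centralspindlin complex of the midzone, had 10.8, 8.76 and 17.0 FPKM in Uhrf1-/- cells, against 13.5, 25.5 and 29.5 FPKM in wild-type cells. Its ranges overlapped, since Uhrf1-/- replicate 3 was above wild-type replicate 1, but each Uhrf1-/- library was below the wild-type library of its number. The difference was -0.83 (-1.60 to -0.06), with a limma unadjusted p of 0.0372, an adjusted p of 0.830 and, with the block, an adjusted p of 0.133, so Kif23 did not pass. Kif20a (MKlp2), which carries the passenger complex to the midzone, had 8.73, 11.0 and 2.73 FPKM in Uhrf1-/- cells, against 5.47, 35.5 and 11.6 FPKM in wild-type cells. Its 6 LSK values spanned 13.0-fold, the widest range of the 30 genes. The differences by pair were 0.59, -1.61 and -1.75, and the 95% interval of the mean difference of -0.92 ran from -2.53 to 0.68. Without pair 1, 4 libraries were left, and the blocked limma fit gave -1.68 for Kif20a (adjusted p = 8.39e-06) and -1.10 for Kif23 (adjusted p = 0.0141). Both then passed, but this fit leaves each gene 1 degree of freedom for its spread, so these p-values lean on the spread of other genes. In that fit 656 of the 10608 genes passed in either direction (6.18%), a share close to that of the 30 genes (6.67%). Of the 656, 338 were higher in Uhrf1-/- cells (3.19% of all genes), while Kif20a and Kif23 were lower. In the same 4 libraries without the block, neither passed (limma adjusted p = 0.847 for Kif20a and 0.680 for Kif23). Kif11 (Eg5), which pushes the spindle poles apart, gave -0.39 (-0.95 to 0.17) with all 3 pairs below 0. Kif2c (MCAK), which depolymerises microtubules at centromeres, gave -0.30 (-1.17 to 0.57), and Cenpe, the motor that carries chromosomes to the spindle equator, gave -0.10 (-1.07 to 0.86).

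Of the spindle microtubule proteins, Nusap1, which bundles microtubules near chromatin, had 17.8, 20.4 and 20.2 FPKM in Uhrf1-/- cells, against 19.5, 50.9 and 30.5 FPKM in wild-type cells. The Uhrf1-/- libraries lay close together and the wild-type libraries did not, and the ranges overlapped at wild-type replicate 1. Nusap1 had a difference of -0.66 (-1.40 to 0.08) with a limma adjusted p of 0.942, and of 0.286 with the block, where it was the other gene under an unadjusted p of 0.05. Prc1, the midzone bundling protein, gave -0.33 (-1.01 to 0.36), and Tpx2, the activator of Aurora A on the spindle, gave -0.15 (-0.76 to 0.46). Hmmr, a spindle and hyaluronan-binding protein, averaged 15.9 ± 3.4 FPKM in Uhrf1-/- cells and 15.8 ± 2.2 FPKM in wild-type cells (SD, n = 3 each), with an interval of -0.59 to 0.58.

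None of the 3 kinetochore and centromere genes or of the 2 chromosome genes passed, and Cenpf and Mki67 had the widest ranges over the LSK libraries after Kif20a, at 4.45-fold and 3.54-fold. Cenpa, the histone H3 variant of centromeres, had 182.0, 203.1 and 101.3 FPKM in Uhrf1-/- cells, against 193.2, 187.6 and 118.5 FPKM in wild-type cells, a difference of -0.07 (-0.86 to 0.73). Ndc80, a microtubule-binding protein of the outer kinetochore, gave -0.08 (-0.76 to 0.60), and Cenpf, a large protein of the kinetochore and nuclear envelope, gave 0.35 (-0.62 to 1.33). Top2a, the topoisomerase that untangles sister chromatids, gave 0.14 (-0.85 to 1.13), and Mki67, the proliferation marker that coats mitotic chromosomes, gave 0.16 (-0.86 to 1.19). The values of Cenpe, Cenpf, Top2a and Mki67 by library are given with the replicates.

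**Figure D2:**
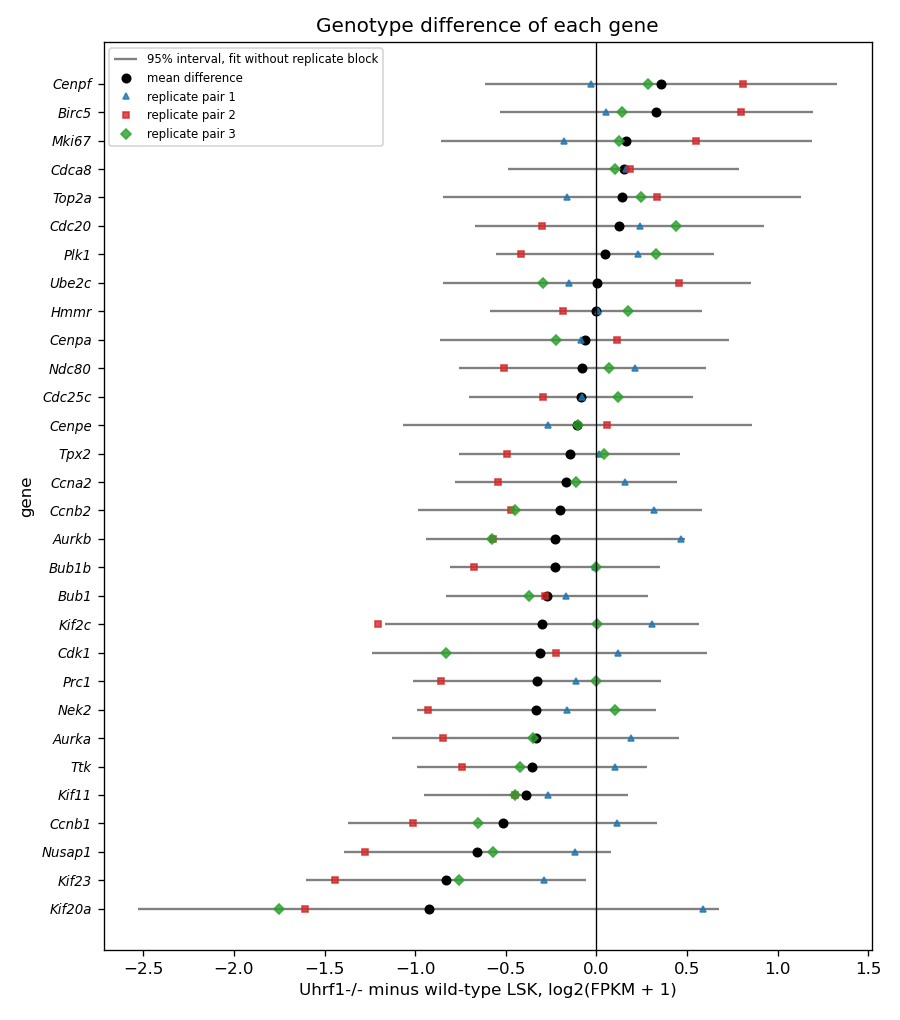
Difference of each of the 30 genes, Uhrf1-/- minus wild-type LSK cells, on the log2(FPKM + 1) scale, with the 95% interval of the fit without the replicate block (grey line), the mean of 3 libraries each (black) and the difference within each replicate pair (coloured). Only the interval of Kif23 lies wholly below 0, and pair 2 lies below 0 for 22 of the 30 genes.

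**Figure D3:**
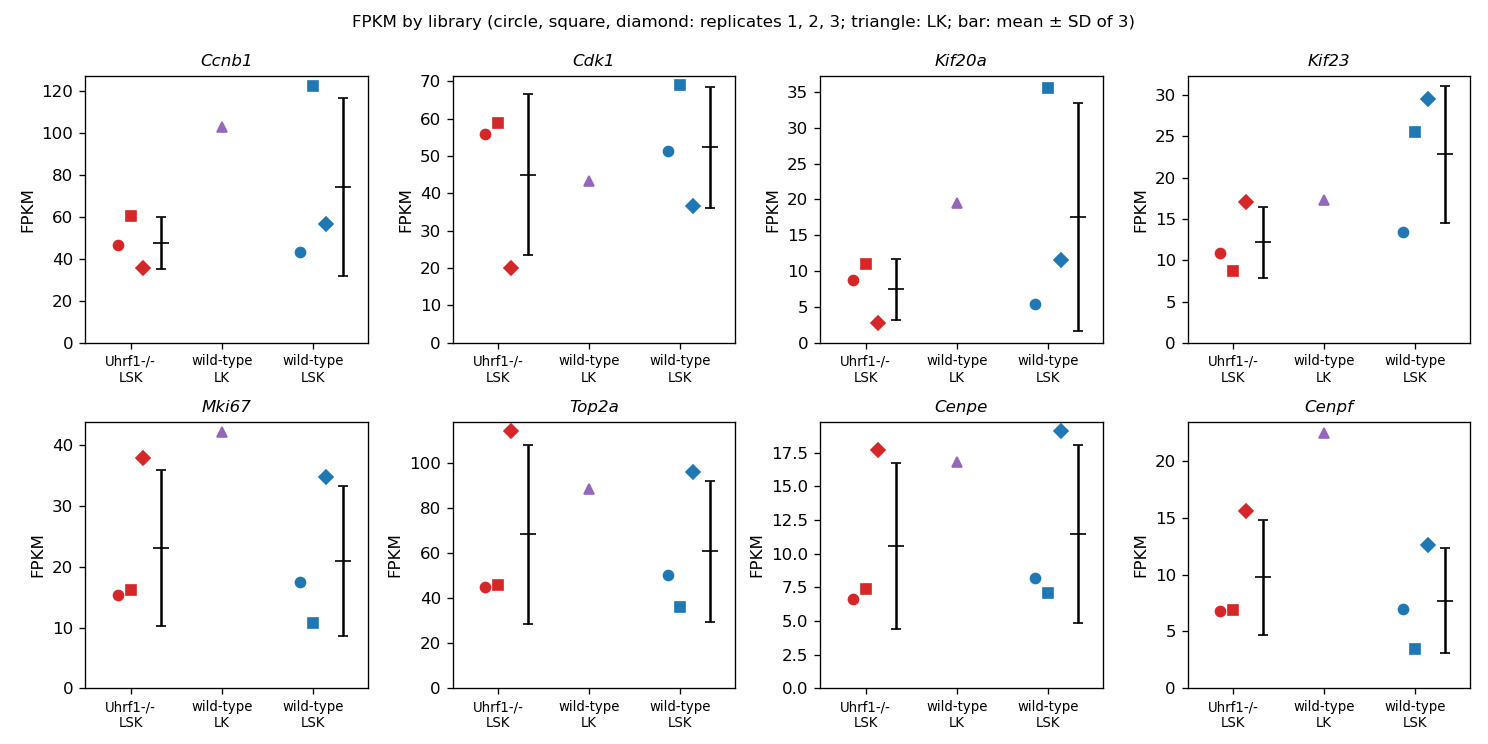
FPKM by library of 8 of the genes in Uhrf1-/- LSK, wild-type LK and wild-type LSK cells, with symbols for replicates 1 (circle), 2 (square) and 3 (diamond) and bars for the mean ± SD of 3 libraries. In the bottom row, replicate 3 is the high library of both genotypes for Mki67, Top2a, Cenpe and Cenpf.

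The genes were also compared by replicate number, over both genotypes. The design text mentions 3 independent experiments, and the sources used here do not say what a replicate number shares beyond that. In a fit with genotype and replicate, the limma F test of the replicate number passed for 5 of the 30 genes (16.7%), against 6.07% of all genes. At an unadjusted limma p under 0.05 it passed for 10 of the 30 (33.3%), against 21.1% of all genes. Mki67, Top2a, Cenpe and Cenpf were higher in replicate 3 than in replicates 1 and 2 (4 genes, against a background of 2.10% of all genes), and Cdk1 was lower (against 3.97%). The adjusted p beside each difference below is that of the F test over all 3 replicate numbers, not of the difference itself.

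Mki67 had 38.0 FPKM in replicate 3 of Uhrf1-/- cells, against 15.3 and 16.2 FPKM in replicates 1 and 2. In wild-type cells it had 34.7 FPKM in replicate 3, against 17.4 and 10.7 FPKM in replicates 1 and 2. Both libraries of replicate 3 were above the other 4, and the log2 difference was 1.25 (0.71 to 1.79, limma adjusted p = 0.0143).

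Top2a had 113.9 FPKM in replicate 3 of Uhrf1-/- cells, against 45.0 and 45.8 FPKM in replicates 1 and 2. In wild-type cells it had 95.9 FPKM in replicate 3, against 50.4 and 36.1 FPKM in replicates 1 and 2. The difference was 1.23 (0.68 to 1.78, limma adjusted p = 0.0172), again without overlap in either genotype.

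Cenpe had 17.7 FPKM in replicate 3 of Uhrf1-/- cells, against 6.65 and 7.39 FPKM in replicates 1 and 2. In wild-type cells it had 19.1 FPKM in replicate 3, against 8.22 and 7.05 FPKM in replicates 1 and 2. The difference was 1.22 (0.69 to 1.75, limma adjusted p = 0.0162), and the replicates 1 and 2 of both genotypes lay close together.

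Cenpf had 15.6 FPKM in replicate 3 of Uhrf1-/- cells, against 6.80 and 6.88 FPKM in replicates 1 and 2. In wild-type cells it had 12.6 FPKM in replicate 3, against 6.96 and 3.50 FPKM in replicates 1 and 2. The difference was 1.13 (0.58 to 1.69, limma adjusted p = 0.0253), and wild-type replicate 2 was the lowest library. Cdk1, whose values are above, fell by 1.07 in replicate 3 (-1.63 to -0.52, limma adjusted p = 0.0427).

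The other 25 genes did not pass, and they leaned both ways: over all 30, 15 were above 0 and 15 below, with a median of -0.0029, against -0.05 over all genes. Kif23 gave 0.69 (0.11 to 1.27) and Prc1 0.44 (-0.11 to 0.99). Cenpa gave -0.80 (-1.45 to -0.15), Cdc20 -0.72 (-1.36 to -0.08) and Birc5 -0.71 (-1.50 to 0.08). Kif20a gave -0.91 (-2.13 to 0.31).

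The replicate 3 difference moved with the length of the transcript, over all genes and among the 30. The 4 genes that were higher in replicate 3 have the longest transcripts of the 30: 11130 bases for Cenpf, 10061 for Mki67, 7910 for Cenpe and 5221 for Top2a. Over all tested genes the median difference was -0.33 for transcripts over 1000 and up to 2000 bases (2198 genes), 0.03 for those over 3000 and up to 4000 bases (1747 genes) and 0.43 for those over 7500 bases (480 genes). Spearman's rho between length and difference was 0.45 across 9703 genes and 0.57 across the 30, which share the same 6 libraries and are not independent. After the median deviation of each library within bins of transcript length was subtracted, an adjustment chosen after the data were seen, only Cdk1 of the 30 passed (limma adjusted p = 0.0446), against 3.41% of all genes. Cdk1 has a transcript of 4375 bases and its adjusted difference was -1.20. The adjusted differences were 0.99 for Top2a (limma adjusted p = 0.0632), 0.86 for Mki67 (0.113), 0.83 for Cenpe (0.121) and 0.75 for Cenpf (0.172). Without the adjustment, leaving out wild-type replicate 2 left 0 of the 30 past the F test, where 216 of all 10608 genes passed. Leaving out Uhrf1-/- replicate 3 left 1, which was Kif20a, with 424 of all genes passing, and leaving out wild-type replicate 3 also left Kif20a alone, with 416 of all genes passing. Cdk1 also did not pass without Uhrf1-/- replicate 2 (limma adjusted p = 0.0885), with a pseudocount of 0.1 (0.0534) or with median-of-ratios scaling (0.0606). With no minimum on low values 16724 genes were tested and 0 of them passed, so the 5 calls were lost there too. Replicate 3 also had lower sums of 10 macrophage markers, at 15.0 FPKM in Uhrf1-/- and 15.4 FPKM in wild-type cells. These sums were 50.3 to 51.7 and 89.4 to 160.1 FPKM in the other libraries of each genotype. C1qa, C1qb and C1qc made up most of this fall. Cd68 had 11.8 FPKM in replicate 3 of Uhrf1-/- cells, against 15.4 and 12.1 FPKM in replicates 1 and 2. In wild-type cells it had 14.1 FPKM in replicate 3, against 8.98 and 14.2 FPKM. The part of length, immediate-early genes and macrophage markers in these differences was not tested beyond the length adjustment.

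**Figure D4:**
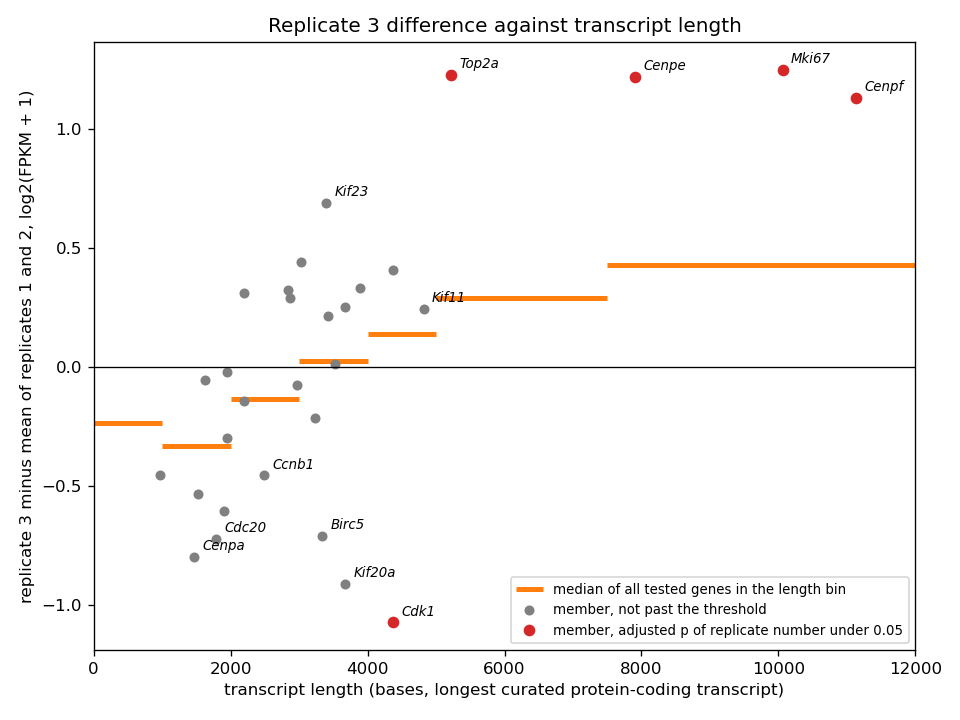
Replicate 3 minus the mean of replicates 1 and 2 (log2(FPKM + 1), genotype in the fit) against transcript length in bases for the 30 genes (points, red where the limma F test of the replicate number passed), with the median of all tested genes in bins of length (orange, the last bin holding all transcripts over 7500 bases). The 4 red points above 1 are the longest transcripts of the 30, and Cdk1 lies at -1.07.

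Wild-type LSK replicate 2 was the highest of the 6 LSK libraries for 17 of the 30 genes (56.7%), against 32.3% of all genes. These were the cyclins, Cdk1, Cdc25c, Cdc20, Plk1, Aurka, Nek2, Bub1b, Ttk, Aurkb, Kif20a, Kif2c, Nusap1, Prc1 and Ndc80. This library was the lowest for Mki67, Top2a and Cenpf. Relative to wild-type replicates 1 and 3, all genes of this library had a median of -0.88 for transcripts up to 1000 bases, 0.38 for those over 2000 and up to 3000 bases and -0.36 for those over 7500 bases. Of the 17 genes, none has a transcript over 5000 bases or under 1000 bases, and the 3 lowest all have transcripts over 5000 bases. The part of length in this ranking was not tested.

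Wild-type LK cells, with 1 library and therefore no test, were set beside the 3 wild-type LSK libraries, which also serve the genotype comparison. Cenpf, Hmmr and Mki67 lay more than 2-fold above the wild-type LSK mean and outside its range, and none of the 30 lay 2-fold below. Of all 10680 genes compared, 21.5% were past these limits, 9.0% higher and 12.5% lower. The LK value was within the wild-type LSK range for 21 of the 30 (70.0%), against 36.2% of all genes. Between wild-type replicates 1 and 3 alone, the LK value was within the range for 12 of the 30 (40.0%), against 20.9% of all genes, and without wild-type replicate 1 or 3 it was for 15 each time, against 25.8% and 25.7% of all genes.

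Hmmr had 36.7 FPKM in LK cells, against 13.3, 16.8 and 17.4 FPKM in wild-type LSK cells, a log2 difference of 1.17. LK was the highest of the 7 libraries, and the 6 LSK libraries lay within 1.48-fold of each other. Cenpf had 22.5 FPKM in LK cells, against 6.96, 3.50 and 12.6 FPKM in wild-type LSK cells, a log2 difference of 1.58. Mki67 had 42.2 FPKM in LK cells, against 17.4, 10.7 and 34.7 FPKM in wild-type LSK cells, a difference of 1.13 from the mean but of 0.28 from replicate 3. Ccna2 had 112.1 FPKM in LK cells, against 44.5, 77.6 and 54.2 FPKM in wild-type LSK cells, a difference of 0.96 just short of the limit. Bub1, Ttk, Tpx2 and Cdca8 were also above each wild-type LSK library, with differences of 0.84, 0.31, 0.35 and 0.31. Ube2c was the only gene below each of them, with 397.6 FPKM in LK cells, against 684.0, 473.4 and 484.8 FPKM in wild-type LSK cells. After the length adjustment Cenpf and Hmmr were past the limit, with 7.86% of all genes past it in the higher direction. Without wild-type replicate 2, 5 of the 30 (16.7%) were past it (Ccna2, Ccnb1, Cenpf, Hmmr and Kif20a), against 9.69% of all genes higher. Without wild-type replicate 3 also 5 were past it (Cenpe, Cenpf, Hmmr, Mki67 and Top2a), against 12.1% of all genes higher. On scaled counts as a share of the library total Cenpf alone was past it (3.33%), against 6.07% of all genes higher, and the median of the 30 was -0.09 there, against 0.18 with FPKM, while the median of all genes was -0.17, against 0.07 with FPKM. Erythroid markers summed to 3072 FPKM in LK cells, against 499.6 to 1017 FPKM in wild-type LSK cells. Hbb-b1 had 137.0 FPKM in LK cells, against 178.4, 56.8 and 56.7 FPKM in wild-type LSK replicates 1, 2 and 3. Hbb-b2 had 267.0 FPKM in LK cells, against 335.0, 98.6 and 190.3 FPKM. Hbb-b1, Hbb-b2 and Hbb-y lay inside the wild-type LSK range, and the other genes of the list lay above it. The 18 immediate-early genes summed to 75.8 FPKM in LK cells, against 2148, 2530 and 140.8 FPKM in wild-type LSK replicates 1, 2 and 3, and the macrophage markers to 8.78 FPKM, against 160.1, 89.4 and 15.4 FPKM. Endothelial markers summed to 136.2 FPKM in LK cells, against 436.4 to 709.1 FPKM in wild-type LSK cells. Most of each sum was Egfl7, with 127.3 FPKM in LK cells and 393.7 to 669.9 FPKM in wild-type LSK cells. Cdh5, Pecam1, Tek and Emcn were also lower in LK cells, while Kdr, Stab2 and Lyve1 were at most 0.29 FPKM in each of these libraries. The LK difference also moved with transcript length over all genes, with a median of -0.11 for transcripts over 1000 and up to 2000 bases and 0.41 for those over 7500 bases. The part of the erythroid, immediate-early, macrophage and endothelial markers in these differences was not tested, nor was that of length beyond the adjustment.

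**Figure D5:**
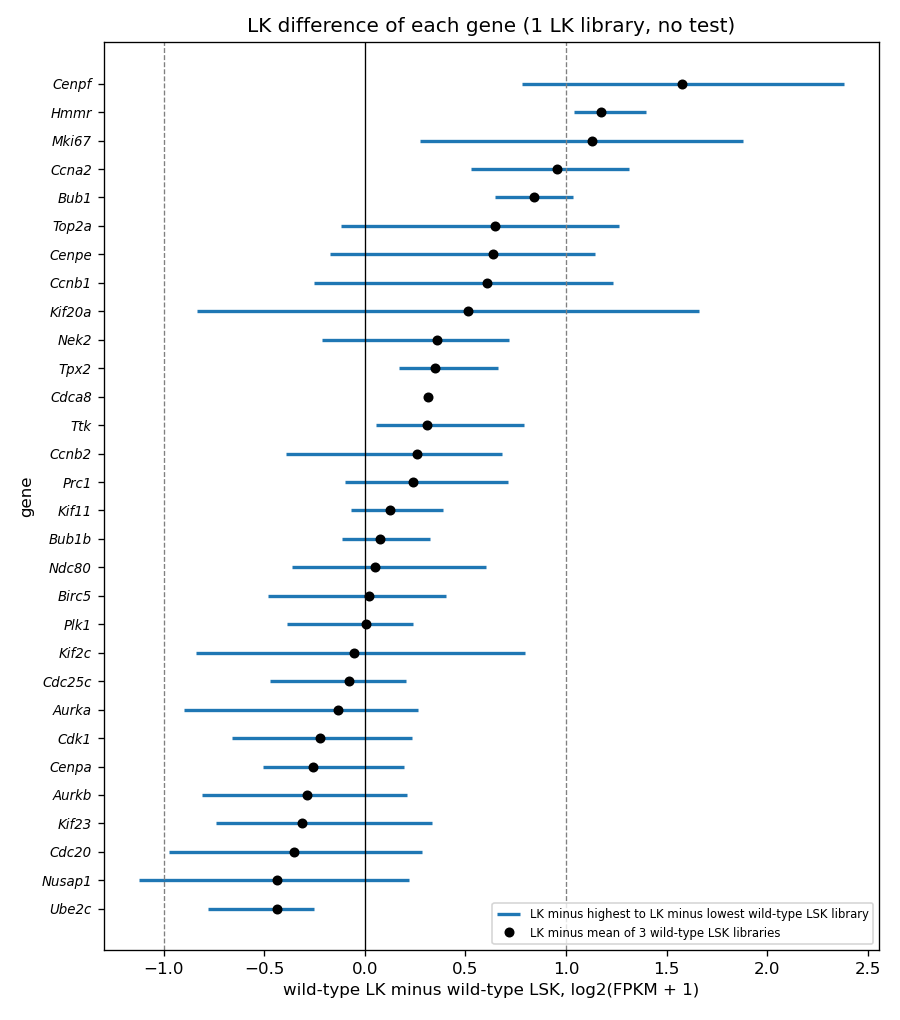
Wild-type LK minus wild-type LSK cells for each of the 30 genes (log2(FPKM + 1)): the difference from the mean of 3 LSK libraries (point) and from the highest and the lowest of them (line ends), with dashed lines at a 2-fold difference. Cenpf, Hmmr and Mki67 lie past the upper dashed line with the whole line above 0.

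Around the 30 genes, 240 other tested genes of the division cycle were compared in 11 lists. With limma, 1 of the 240 passed for genotype, Uhrf1 itself, and with the block again 1 (0.417%). None of the 22 tested regulators of G2/M transcription passed, with a median difference of -0.04. In that list E2f1, an activator of S phase genes, had 36.2, 38.2 and 36.1 FPKM in Uhrf1-/- cells. Wild-type cells had 28.5, 28.3 and 21.6 FPKM, without overlap, and the limma adjusted p was 0.942 (0.419 with the block). Ranges without overlap and with Uhrf1-/- higher were found in 4.61% of all genes. Lin54, the MuvB subunit that binds the CHR element, averaged 1.72 ± 0.31 FPKM in Uhrf1-/- cells and 3.06 ± 1.09 FPKM in wild-type cells (SD, n = 3 each; limma adjusted p = 0.942). None of the 37 other kinetochore and centromere genes passed, with 26 below 0 and a median of -0.10. Oip5, which helps to load Cenpa, gave -0.72 (limma adjusted p = 0.891). None of 36 other spindle genes passed, with a median of 0.02. Gas2l3, a linker of actin and microtubules in cytokinesis, had 24.2, 21.2 and 47.6 FPKM in Uhrf1-/- cells, against 15.5, 3.68 and 28.0 FPKM in wild-type cells. The difference of Gas2l3 was 1.20, with a limma adjusted p of 0.942 and, with the block, of 0.0518.

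The lists of the anaphase-promoting complex (20 tested), the gatekeepers of Cdk1 (19), cohesin (16), condensin (8), cytokinesis (14) and other G2/M genes (31) likewise had 0 genes past the genotype test, and their medians lay between -0.19 and -0.05. For the replicate number, 13 of the 240 passed (5.42%), near the 6.07% of all genes. Those higher in replicate 3 were the cohesin regulators Pds5a and Nipbl, the kinetochore scaffold Casc5 (Knl1), Gas2l3, the motors Kif15 and Kif20b, Klhl9 and Ung. Casc5 had 8.51 FPKM in replicate 3 of Uhrf1-/- cells, against 2.14 and 3.04 FPKM in replicates 1 and 2, and 9.19 FPKM in replicate 3 of wild-type cells, against 2.27 and 3.11 FPKM. Those lower in replicate 3 were Plk2, Dsn1, Depdc1b, Cdkn1a and Cdk6. Cohesin and condensin had the highest medians for replicate 3, at 0.52 and 0.43, and in LK cells, at 0.67 and 0.58. Both differences moved with transcript length over all genes, and the part of length in these list medians was not tested.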

How the data were processed

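RNA-seq values of 7 libraries were used, grouped by the sample titles. The deposited table gives 2 measures per library. The first is named a count per the file headers, but its values are not whole and were read as a scaled count signal, and the sources used here do not say how it was scaled. Each library has its own step, and 98.2% to 98.6% of low values fell within 0.02 steps of a multiple of it, the rest being fractional, so count models were not run. The second is FPKM, used as the authors deposited it. Per the submitters' processing notes, which give no roles, TopHat2 2.0.9, Cufflinks 2.1.1 and mm10 were used. The sources used here state no annotation, strand setting or counting options, so reads of overlapping genes and near-identical copies are uncertain.

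The genotype test used log2(FPKM + 1) values in limma 3.58.1 (R 4.3.3) with trend and robust moderation, two-sided, over genes averaging 1 FPKM or more in the 6 LSK libraries, Benjamini-Hochberg adjusted over all of them with a threshold of 0.05. This scale understates differences of low genes. The replicate number was tested by the limma F test with genotype in the model. The LK library was set beside the mean and range of 3 libraries. P-values measure only the spread between these libraries, since nothing says which animals went into each, and an adjusted p for genotype comes from the unblocked fit unless the block is named, while one for the replicate number is that of the F test over all 3 numbers. The libraries' deviations from their group mean had correlations of 0.349, 0.332 and 0.645 between libraries of the same number, all above 0.1. Uhrf1-/- replicate 1 with wild-type replicate 2 (0.213) and Uhrf1-/- replicate 2 with wild-type replicate 1 (0.159) were above 0.1 too. This limit therefore did not separate numbers 1 and 2 from each other. The numbers were treated as pairs on the evidence of the data, which the block and the F test also use, and not of the labels.

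The 30 genes, their roles and the wider lists were chosen with earlier results of these data known. All 30 are named. Of each wider list the rule named the 2 genes with the smallest genotype p and each gene that passed a test, and examples of these are given. Transcript length is that of the longest protein-coding GENCODE M21 transcript with a curated RefSeq ID, which 91.5% of tested genes have. Alternatives were another pseudocount, other minima, scaled counts as a share of the library total, median-of-ratios scaling, the block and leaving out libraries. The length adjustment (10 bins) and leaving out libraries for the replicate number and for the LK range were chosen after the data were seen. The fits were run on simulated data with independent noise, no effect of length, and no replicate effect other than the changes added. Those changes were larger than any difference of the 30 genes. The simulation therefore does not show how well differences of their size are found. FPKM values carry no counting interval, and the number of libraries limits the precision.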

Additional observations from a re-analysis of the deposited data

How the results depend on the processing

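For genotype, 0 of the 30 genes passed the limma test in the higher direction under each setting tried (pseudocount 0.1, no minimum, a minimum of 5 FPKM, scaled counts as a share of the library total, median-of-ratios scaling, the length adjustment, the replicate block and each left-out library or pair). In the lower direction the count was also 0, except in the paired fit (replicate block) without pair 1, which gave 2. In that fit 656 of all 10608 genes passed in either direction, 338 of them higher. Leaving out replicates therefore gave 0 to 2, and the cause was not tested. The replicate block alone changed no call. The point differences near 0 changed sign with the setting. On scaled counts as a share of the library total, Cdc20 had -0.030, Ube2c -0.032, Plk1 -0.11 and Hmmr 0.021. With median-of-ratios scaling Hmmr had 0.051. After the length adjustment, without or with the block, Ube2c had -0.29, Hmmr 0.16 and Ndc80 0.0069. Leaving out replicates, these genes changed sign: Ccna2 -0.35 to 0.049, Ccnb2 -0.46 to 0.13, Cdk1 -0.58 to 0.17, Cdc25c -0.22 to 0.11, Cdc20 -0.19 to 0.44, Ube2c -0.22 to 0.23, Plk1 -0.094 to 0.28, Aurka -0.60 to 0.048, Aurkb -0.57 to 0.034, Kif2c -0.72 to 0.15, Cenpe -0.51 to 0.30, Tpx2 -0.33 to 0.026, Hmmr -0.16 to 0.11, Cenpf -0.050 to 0.75, Cenpa -0.29 to 0.24, Ndc80 -0.35 to 0.14, Mki67 -0.24 to 0.59 and Top2a -0.30 to 0.52. The other 12 genes kept their sign.

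For the replicate number, the 4 genes higher in replicate 3 became 0 without a minimum and after the length adjustment, and 0 to 5 without single libraries. The 1 gene lower became 0 with a pseudocount of 0.1, without a minimum and with median-of-ratios scaling, 2 with a minimum of 5 FPKM, and 0 to 3 without single libraries. Without a minimum 16724 genes were tested and 0 of all genes passed. Some differences changed sign: on scaled counts as a share of the library total Ccna2 had 0.024, and after the length adjustment Cdc25c had 0.27, Plk1 0.045, Cdca8 0.24 and Nusap1 -0.022. Without single libraries the ranges were Ccna2 -0.22 to 0.067, Cdc25c -0.17 to 0.14, Plk1 -0.35 to 0.067, Nek2 -0.54 to 0.11, Kif2c -0.013 to 0.66 and Nusap1 -0.22 to 0.25. In LK cells the count past 2-fold higher was 1 on scaled counts as a share of the library total and 3 to 5 without single wild-type libraries, and the count lower was 0 under each setting tried. The count within the wild-type LSK range was 12 to 15 without single wild-type libraries, against 21 with all 3. The shares of promoters with each motif differed by less than their interval in the shorter window. Count models (edgeR, DESeq2) were not run, since whole reads could not be recovered for all genes.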

Other observations

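Of the 11 wider lists, the genes that govern entry into the cycle had the highest median difference between the genotypes. Of 12 tested G1 cyclins, kinases and inhibitors, 9 lay above 0, with a median difference of 0.25 between Uhrf1-/- and wild-type LSK cells, against -0.03 over all genes, and 0 passed the limma test without or with the block. Cdkn1a, which encodes the Cdk inhibitor p21, had 14.0, 10.7 and 5.83 FPKM in Uhrf1-/- replicates 1, 2 and 3, against 7.34, 5.49 and 2.41 FPKM in the wild-type replicates. Each Uhrf1-/- library was above the wild-type library of its number, although the ranges overlapped. Cdkn1a had a log2 difference of 0.90, with a limma adjusted p of 0.885 and, with the block, of 0.0550. Replicate 3 was the lowest library of each genotype, and for the replicate number Cdkn1a passed (limma adjusted p = 0.0342).

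Cdk6, the kinase partner of the D cyclins, had 18.0, 17.2 and 5.20 FPKM in Uhrf1-/- cells, against 12.8, 6.27 and 3.72 FPKM in wild-type cells, with an adjusted genotype p of 0.942 (0.203 with the block) and an adjusted replicate p of 0.00966 by limma. Of 30 S phase genes, Uhrf1 alone passed for genotype, and 13 of the 30 lay below 0. Ung, which removes uracil from DNA, had 53.9 FPKM in replicate 3 of Uhrf1-/- cells, against 25.5 and 21.4 FPKM in replicates 1 and 2, and 42.5 FPKM in replicate 3 of wild-type cells, against 22.0 and 10.5 FPKM.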
